A study of Mus musculus with 6 samples.

Results

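Type I interferon-stimulated antiviral genes are the genes that cells switch on when interferon-alpha or interferon-beta reaches them. A list of 38 such genes was taken by gene name from a table of 54532 mouse genes, and every name had 1 row. The values are FPKM, fragments scaled to gene length and to a divisor set for each library. They come from primary mouse macrophages challenged for 6 h in culture with *Candida albicans*, a yeast that infects people. The libraries labelled METRNL-/- (KO, 3 libraries) came from METRNL KO mice, which are meant to lack meteorin-like, a secreted protein. The libraries labelled METRNL+/+ (WT, 3 libraries) came from WT mice. All 6 libraries had met the fungus, so the comparison asks how the genotypes differ during the challenge and not how cells respond to it. The labels give neither the strain, age or number of the mice nor the tissue the macrophages came from, and whether the 3 replicates of a genotype stand for different mice or dishes is not stated. The p-values therefore measure only how far these libraries spread, part of which may be technical.

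As background, type I interferon binds a receptor made of IFNAR1 and IFNAR2. The kinases JAK1 and TYK2 then activate STAT proteins, among them STAT2, which join IRF9 in a complex that binds the interferon-stimulated response element (ISRE) in the promoters of target genes. The targets encode proteins that bind or cut foreign RNA, disturb viral use of nucleotides, or trap particles at the membrane, along with sensors and factors that feed back on the pathway itself. In macrophages the usual trigger is a Toll-like receptor or a cytosolic nucleic acid sensor that leads to interferon-beta.

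The ISRE sequence could be shown for many of these genes. RefSeq promoter windows on GRCm38.p6, from 250 bases before to 50 after a gene's start, were matched by symbol for 28 of the 38 genes. The letters GAAANNGAAA, the ISRE core, were searched on both strands, with overlapping matches counted. They stood in a window of 16 of the 28 genes, against 3.44% of all 32851 promoter windows and 3.99% of 27025 genes. The letters TTCNNNGAA, the core of the gamma-activated site that serves interferon-gamma, stood in 5 of the 28 genes, against 9.55% of genes. The windows below show the matches in capitals, each read along its gene's strand, and were chosen because they include the near-copies and genes from most of the roles that follow.
Ifit1, chr19:34640770-34640828, plus strand: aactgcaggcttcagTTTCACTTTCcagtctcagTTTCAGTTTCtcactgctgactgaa
Ifit3, chr19:34583358-34583431, plus strand: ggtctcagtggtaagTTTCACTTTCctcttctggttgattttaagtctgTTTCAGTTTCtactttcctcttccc
Ifit3b, chr19:34607754-34607827, plus strand: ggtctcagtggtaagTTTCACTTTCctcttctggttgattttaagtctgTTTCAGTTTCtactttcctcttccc
Isg15, chr4:156200860-156200911, minus strand: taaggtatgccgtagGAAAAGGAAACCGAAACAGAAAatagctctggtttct
Oas1a, chr5:120907515-120907560, minus strand: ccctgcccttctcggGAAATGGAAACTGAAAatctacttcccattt
Oas1g, chr5:120887601-120887646, minus strand: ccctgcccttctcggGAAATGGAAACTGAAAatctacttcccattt
Oas3, chr5:120777710-120777749, minus strand: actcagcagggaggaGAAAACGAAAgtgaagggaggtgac
Rsad2, chr12:26456548-26456587, minus strand: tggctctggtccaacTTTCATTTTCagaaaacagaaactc
Ddx60, chr8:61928019-61928092, plus strand: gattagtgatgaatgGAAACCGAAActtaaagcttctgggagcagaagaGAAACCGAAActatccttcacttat
Bst2, chr8:71537572-71537617, minus strand: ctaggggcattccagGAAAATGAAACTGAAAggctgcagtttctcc
Slfn8, chr11:83020834-83020873, minus strand: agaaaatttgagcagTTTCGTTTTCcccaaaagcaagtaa

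The 74 bases shown for *Ifit3* and *Ifit3b* were identical, as were the 46 bases shown for *Oas1a* and *Oas1g*. In *Isg15* 3 matches overlapped in 1 run, beginning 78 bases before the start. A match is a stretch of letters and does not show that a factor was bound.

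The libraries held between 11026529 and 15724897 reads in genes, recovered from the FPKM as whole numbers. KO replicate 1 held 14772746 reads in genes, while its FPKM imply a divisor of 12793110. WT replicate 1 held 14309247, while its FPKM imply 16034203. Relative to reads in genes, FPKM thus raise KO replicate 1 and lower WT replicate 1, which bears on every overlap of these 2 libraries given below. *Metrnl* itself stood at 51.2, 63.6 and 62.8 FPKM in KO replicates 1 to 3 and at 93.5, 63.2 and 69.8 FPKM in WT replicates 1 to 3 (limma, adjusted p = 0.181). A value summed over a whole gene does not show which exons were present, so it gives no check of the labels, and KO and WT name what the labels say. Of 8 macrophage markers *Lyz2*, *Adgre1* and *Itgam* rose, *Fcgr1* fell, and the other 4 did not pass. In TPM, a scaling to a fixed sum per library, *Itgam* did not pass (limma adjusted p = 0.0792). The list summed to 8460 to 9140 FPKM in KO libraries and 4710 to 5510 FPKM in WT libraries. Most of the sum was *Lyz2*, *Cd14* and *Cd68*, and *Cd14* and *Cd68* were among those that did not pass. The protocol text of the labels mentions retinas, and the 6 retinal markers summed to at most 0.288 FPKM in any library. The replicate 1 libraries stood apart from replicates 2 and 3 of their groups in both genotypes. A chi-square of reads over genes, divided by its degrees of freedom, was 59.4 and 59.4 for KO replicate 1 against KO replicates 2 and 3, and 2.30 between KO replicates 2 and 3. It was 42.2 and 39.6 for WT replicate 1 against WT replicates 2 and 3, and 7.10 between WT replicates 2 and 3. Results are therefore given with and without both replicate 1 libraries. The fit without them compares only KO replicates 2 and 3 with WT replicates 2 and 3, a choice made from these same data.

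Antiviral interferon-stimulated genes were lower in KO. Of the 38 genes 37 reached the level for testing, a mean of 0.5 FPKM over the 6 libraries, and *Ifi44* did not. Of the 37 tested genes 21 fell and 0 rose (limma, Benjamini-Hochberg adjusted p below 0.05 over all 11689 tested genes), where 12.4% of all tested genes fell and 15.7% rose. Another 16 did not pass, and their log2 differences were also below 0. The median log2 fold change, KO minus WT on log2(FPKM + 1), was -1.13 over the 37 genes and 0.03 over all tested genes. The level filter bears on 4 of the 37, *Ifit3b*, *Mx1*, *Mx2* and *Ddx60*, which had a KO mean below it and were tested because of their WT values. With limma-voom on the recovered reads 29 fell and 0 rose, where 13.4% of all tested genes fell, 17.1% rose and 30.5% did either.

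The number that passed depended on which libraries were included. Without both replicate 1 libraries 36 of the 37 fell, at a background of 16.3%, and the median log2 fold change was -1.68. In most of these genes the replicate 1 libraries lay between the others. Leaving them out thus widens the gap between the groups and narrows the spread within them. That fit favours a call and is no independent support for the calls with all libraries. In that fit *Lgals3bp* alone did not pass (adjusted p = 0.074). Leaving out KO replicate 1 alone gave 32 lower genes and leaving out WT replicate 1 alone gave 29, each at a background of 11.4%. Leaving out KO replicate 2, KO replicate 3 or WT replicate 3 gave 7, at backgrounds of 7.28%, 7.29% and 7.52%. Leaving out WT replicate 2 gave 10, at a background of 8.46%. The genes that passed in each of these 6 fits were *Ifit3*, *Rsad2*, *Cmpk2*, *Isg20*, *Zbp1*, *Ifi27l2a* and *Slfn8*, 7 in all. All 37 stayed below 0 in each of the fits.

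**Figure D1:**
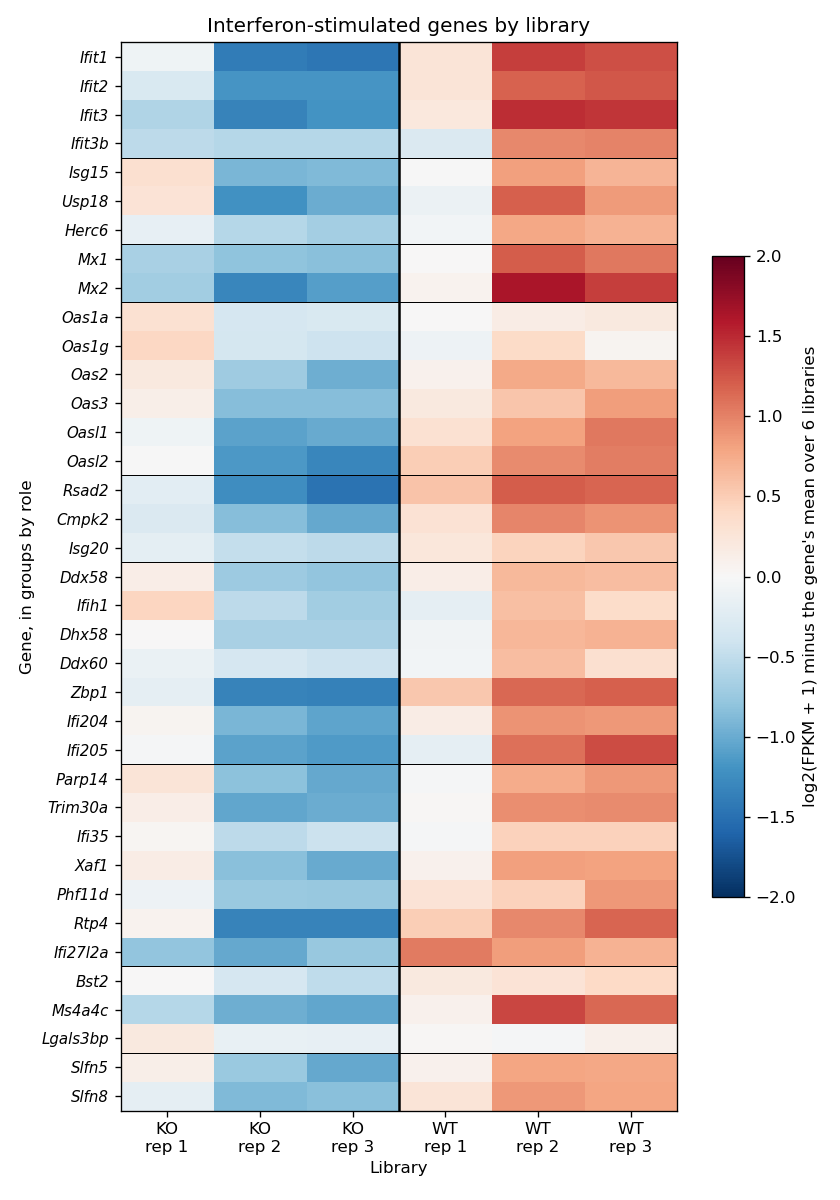
Levels of the 37 tested interferon-stimulated genes (rows, in groups by role) in each library (columns, KO left of WT). Colour gives log2(FPKM + 1) minus the gene's mean over the 6 libraries. KO replicates 2 and 3 are lowest and WT replicates 2 and 3 highest for most genes, with KO replicate 1 and WT replicate 1 between them.

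Set against the mean of WT replicates 2 and 3, the median gene stood at 47.6%, 22.2% and 21.8% in KO replicates 1 to 3 and at 59.3%, 101% and 99.3% in WT replicates 1 to 3. The same median over all tested genes lay between 99.6% and 103% in every library. The 38 genes took 0.126%, 0.0769% and 0.0727% of the reads in KO replicates 1 to 3, and 0.165%, 0.249% and 0.236% of the reads in WT replicates 1 to 3. KO replicate 1 therefore held more of this RNA than the other KO libraries, and WT replicate 1 held less than the other WT libraries.

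Of the 4 IFIT genes 3 fell, and the median log2 fold change was -1.86. They encode proteins with tetratricopeptide repeats that hold foreign RNA, and they lie in 1 stretch of chromosome 19 (GRCm38), from *Ifit2* at 34550694 to the end of *Ifit1* at 34650009. *Ifit1* (ENSMUSG00000034459), whose protein binds RNA caps that lack host methylation, had 6.68, 2.10 and 2.01 FPKM in KO replicates 1 to 3, against 8.74, 20.2 and 18.9 FPKM in WT replicates 1 to 3. All KO values lay below all WT values, and the group means were 3.60 ± 2.67 FPKM in KO and 16.0 ± 6.29 FPKM in WT (SD, n = 3 each). The gene fell 4.44-fold (log2 fold change -1.95 ± 0.46 SE, limma adjusted p = 0.0239), and 9.52-fold without both replicate 1 libraries (adjusted p = 4.15e-04). *Ifit2*, whose protein restrains viruses in several mouse tissues, had 2.27, 0.774 and 0.782 FPKM in KO, against 3.81, 8.09 and 8.52 FPKM in WT. It fell 5.34-fold (limma adjusted p = 0.0133) with groups that did not overlap.

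*Ifit3*, a partner that stabilises the IFIT complex in human cells, had 1.21, 0.327 and 0.459 FPKM in KO, against 2.89, 8.37 and 8.06 FPKM in WT. Its log2 fold change of -2.09 ± 0.38 SE was the largest of the 37 genes on log2(FPKM + 1) with all libraries, though not under every scale or without both replicate 1 libraries (limma adjusted p = 0.0104; adjusted p = 4.93e-04 without both replicate 1 libraries). *Ifit3b*, its near-copy, had 0.0391, 0 and 0 FPKM in KO, against 0.218, 1.91 and 1.96 FPKM in WT. These values rest on 1 read over the KO libraries and 101 reads over the WT libraries, a WT to KO ratio of 109 with an exact 95% interval of 19.1 to 4350 that covers counting error only. The log2 fold change of *Ifit3b* was -1.11 ± 0.35 SE and did not pass (limma adjusted p = 0.0572), and it passed without both replicate 1 libraries (adjusted p = 0.00169). Of the 50-base words in *Ifit3* transcripts 51.2% also occur in *Ifit3b*, so reads may be divided between them and the split is uncertain.

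In the ISG15 system 1 of 3 genes fell with all libraries and 3 without both replicate 1 libraries. *Isg15*, the ubiquitin-like modifier and the highest of the 38 genes in FPKM, had 196, 83.4 and 84.9 FPKM in KO, against 156, 278 and 252 FPKM in WT. KO replicate 1 lay above WT replicate 1 in FPKM, on 1897 and 1894 reads, so the groups overlapped. The log2 fold change of -0.99 ± 0.38 SE did not pass (limma adjusted p = 0.105). Without both replicate 1 libraries it was 3.15-fold lower in KO and passed (adjusted p = 6.73e-04). *Usp18*, which takes ISG15 off its targets and restrains the type I receptor, had 4.82, 1.07 and 1.41 FPKM in KO, against 3.42, 9.98 and 7.70 FPKM in WT. It overlapped in the same way and missed the threshold (limma adjusted p = 0.0972, log2 fold change -1.29 ± 0.49 SE), but passed without both replicate 1 libraries (7.14-fold lower, adjusted p = 0.00182). *Herc6*, the main ligase that attaches ISG15 in mice, had 1.01, 0.525 and 0.402 FPKM in KO, against 1.18, 2.85 and 2.67 FPKM in WT. It fell 3.46-fold (limma adjusted p = 0.0356). Another transcript, *Gm45193*, covers 13.7% of its exon bases on the same strand.

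Both Mx genes fell. They encode dynamin-like GTPases, neighbours on chromosome 16 with a gap of 72.4 kb, and many laboratory mouse strains carry defective copies. *Mx1*, which acts on influenza viruses in the nucleus, had 0.496, 0.352 and 0.317 FPKM in KO, against 1.37, 4.47 and 3.88 FPKM in WT. It fell 8.34-fold (log2 fold change -1.52 ± 0.31 SE, limma adjusted p = 0.0153). *Mx2*, which acts in the cytoplasm and is annotated as a polymorphic pseudogene in the table, had 0.822, 0.193 and 0.369 FPKM in KO, against 2.09, 8.08 and 6.70 FPKM in WT, and fell 12.2-fold (limma adjusted p = 0.0146). The KO values rest on 63 reads for *Mx1* and 69 reads for *Mx2* over the 3 libraries. Their KO means of 0.388 and 0.461 FPKM lay below the level for testing, which both genes reached through their WT values. KO replicate 1 was the highest KO library for both genes, and it stayed below WT replicate 1.

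Of the 6 OAS genes 3 fell, and the median log2 fold change was -1.02. Oligoadenylate synthetases sense double-stranded RNA and make the signal that activates the nuclease RNase L. *Oasl2*, an active synthetase in mice, had 4.87, 1.68 and 1.40 FPKM in KO, against 7.31, 10.4 and 11 FPKM in WT, and fell 3.61-fold (limma adjusted p = 0.0182). *Oasl1*, which blocks translation of *Irf7* RNA in mice, had 8.03, 3.57 and 3.76 FPKM in KO, against 10.8, 15.7 and 19.0 FPKM in WT, and fell 2.96-fold (limma adjusted p = 0.0187). Their groups did not overlap. *Oas3*, the long synthetase, had 3.63, 1.38 and 1.38 FPKM in KO, against 3.90, 5.26 and 6.65 FPKM in WT, and fell 2.48-fold (limma adjusted p = 0.0431). *Oas2* had 6.78, 3.15 and 2.44 FPKM in KO, against 6.15, 10.4 and 9.55 FPKM in WT, with KO replicate 1 above WT replicate 1, and missed the threshold (limma adjusted p = 0.0715; adjusted p = 0.00209 without both replicate 1 libraries).

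The remaining OAS genes, *Oas1a* and *Oas1g*, differed less. *Oas1a*, an active synthetase, had 30.4, 19.2 and 19.6 FPKM in KO, against 24.7, 27.3 and 28.2 FPKM in WT. *Oas1g*, 8.64 kb away on chromosome 5, had 4.21, 2.06 and 1.94 FPKM in KO, against 2.64, 4.07 and 3.07 FPKM in WT. In both genes KO replicate 1 was the highest of all 6 libraries. The log2 fold changes were -0.23 ± 0.18 SE and -0.23 ± 0.25 SE, with 95% confidence intervals of -0.66 to 0.20 for *Oas1a* and -0.82 to 0.37 for *Oas1g* (limma adjusted p = 0.376 and 0.537). Without both replicate 1 libraries the 2 genes were 1.43-fold and 1.79-fold lower in KO (adjusted p = 0.0048 and 0.0285). Of the 50-base words of *Oas1a* 57.6% occur in *Oas1g*, so the division of reads between them is uncertain.

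Of the antiviral enzyme genes 3 of 3 fell, without overlap between KO and WT values. *Rsad2* encodes viperin, which makes a chain-terminating nucleotide, and had 16.6, 7.61 and 6.37 FPKM in KO, against 29.4, 46.3 and 44.7 FPKM in WT. *Cmpk2*, a mitochondrial nucleotide kinase gene 12.8 kb from *Rsad2* on chromosome 12, had 1.97, 1.02 and 0.801 FPKM in KO, against 3.45, 6.14 and 5.83 FPKM in WT. The 2 neighbours had log2 fold changes of -1.96 ± 0.35 SE and -1.44 ± 0.25 SE (limma adjusted p = 0.0102 and 0.00946). *Isg20*, the gene of an exonuclease that degrades RNA, had 2.44, 1.81 and 1.72 FPKM in KO, against 3.62, 4.34 and 4.68 FPKM in WT. Its fall was smaller, 2.12-fold, with tighter replicates (log2 fold change -0.81 ± 0.13 SE, limma adjusted p = 0.00635).

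Among 7 genes of cytosolic nucleic acid sensors 3 fell with all libraries and 7 without both replicate 1 libraries. *Zbp1*, which senses left-handed nucleic acid and can start necroptosis, had 5.49, 1.92 and 1.89 FPKM in KO, against 9.72, 15.3 and 15.9 FPKM in WT. It fell 4.39-fold (log2 fold change -1.92 ± 0.35 SE, limma adjusted p = 0.0111). *Ddx58*, which encodes the RNA helicase RIG-I, had 5.92, 2.81 and 2.65 FPKM in KO, against 5.96, 8.90 and 8.69 FPKM in WT. The replicate 1 values of the 2 genotypes nearly met, and *Ddx58* passed narrowly (2.07-fold lower, limma adjusted p = 0.049). *Ifi204*, of the DNA-binding PYHIN family, had 21.8, 10.7 and 9.61 FPKM in KO, against 23.4, 39.9 and 39.2 FPKM in WT, and fell 2.43-fold (limma adjusted p = 0.0356).

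The other 4 sensors did not pass with all libraries. *Ifih1*, the gene of the RNA helicase MDA5, had 10.1, 4.72 and 4.09 FPKM in KO, against 6.22, 11.4 and 9.58 FPKM in WT (log2 fold change -0.52 ± 0.34 SE, 95% confidence interval -1.33 to 0.29, limma adjusted p = 0.3). KO replicate 1 lay at the level of WT replicates 2 and 3. *Dhx58*, the gene of the regulator LGP2, had 3.70, 2.01 and 2.0 FPKM in KO, against 3.45, 6.41 and 6.64 FPKM in WT (limma adjusted p = 0.0593). *Ifi205*, a PYHIN relative of *Ifi204*, had 5.33, 2.06 and 1.95 FPKM in KO, against 4.73, 12.9 and 14.9 FPKM in WT (limma adjusted p = 0.0582). KO replicate 1 exceeded WT replicate 1 in all 3 of these genes. *Ddx60*, a helicase gene, was low throughout, at 0.468, 0.270 and 0.207 FPKM in KO, against 0.539, 1.46 and 0.994 FPKM in WT, with no overlap (limma adjusted p = 0.0642). *Ifi204* and *Ifi205* share 20% and 18.6% of their 50-base words with other genes, mostly *Ifi211*.

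Of the 8 genes of nuclear, mitochondrial and signalling proteins 3 fell. *Ifi27l2a*, which encodes a small hydrophobic protein, had 7.26, 6.02 and 7.49 FPKM in KO, against 28.2, 24.6 and 22.1 FPKM in WT. Here the replicate 1 libraries did not stand apart, and the gene had the smallest adjusted p of the 37 (3.60-fold lower, log2 fold change -1.71 ± 0.12 SE, limma adjusted p = 3.43e-04). *Rtp4*, a chaperone gene for membrane receptors, had 7.85, 2.35 and 2.35 FPKM in KO, against 10.9, 15.5 and 17.9 FPKM in WT, and fell 3.53-fold (limma adjusted p = 0.0235). *Phf11d*, of the PHD finger class, had 1.95, 0.901 and 0.890 FPKM in KO, against 2.84, 3.38 and 4.80 FPKM in WT, and fell 2.95-fold (limma adjusted p = 0.0176).

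*Parp14*, the gene of an ADP-ribosyltransferase, had 17.0, 7.53 and 6.44 FPKM in KO, against 13.8, 24.3 and 26.5 FPKM in WT (limma adjusted p = 0.0895). *Trim30a*, which restrains Toll-like receptor signalling in mice, had 22.0, 9.15 and 9.56 FPKM in KO, against 20.2, 39.1 and 39.5 FPKM in WT (limma adjusted p = 0.0574). *Xaf1*, which promotes apoptosis, had 4.12, 1.58 and 1.31 FPKM in KO, against 3.90, 7.14 and 7.09 FPKM in WT (limma adjusted p = 0.0551). KO replicate 1 lay above WT replicate 1 in each, which made the groups overlap, and none of the 3 passed. *Ifi35*, whose exons overlap the antisense *Gm11626* over 16.8% of their bases, showed the same order at 9.60, 6.16 and 6.61 FPKM in KO, against 9.10, 13.1 and 13.2 FPKM in WT (limma adjusted p = 0.0659). All 4 passed without both replicate 1 libraries (adjusted p between 4.21e-04 and 0.00177). *Ifi44* was near its detection limit, with 6, 0 and 1 reads in KO replicates 1 to 3 and 7, 18 and 13 reads in WT replicates 1 to 3, and was not tested.

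Of the 3 genes of membrane and secreted proteins *Bst2* and *Ms4a4c* fell. *Bst2* encodes tetherin, which holds budding virus at the cell surface, and had 48.6, 38.0 and 33.5 FPKM in KO, against 55.2, 58.3 and 63.7 FPKM in WT. The groups did not overlap, and the fall was small (1.47-fold, limma adjusted p = 0.0298). *Ms4a4c*, of the tetraspanning MS4A family, had 0.848, 0.398 and 0.343 FPKM in KO, against 1.92, 5.92 and 5.11 FPKM in WT, and fell 8.15-fold on 39 reads over the KO libraries (limma adjusted p = 0.0132). *Lgals3bp*, a secreted glycoprotein gene that was the second highest of the 38, had 91.6, 72.5 and 71.7 FPKM in KO, against 81.5, 79.2 and 86.0 FPKM in WT. Its log2 fold change of -0.07 ± 0.11 SE missed the threshold (95% confidence interval -0.34 to 0.19, limma adjusted p = 0.665).

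The Schlafen genes *Slfn5* and *Slfn8*, of a family linked to restraint of cell growth, lie 37.3 kb apart on chromosome 11. *Slfn8* had 6.67, 3.75 and 3.88 FPKM in KO, against 9.39, 14.9 and 14.1 FPKM in WT, and fell 2.68-fold (limma adjusted p = 0.012). *Slfn5* had 13.4, 6.94 and 5.54 FPKM in KO, against 13.1, 22.0 and 21.7 FPKM in WT, so that KO replicate 1 lay just above WT replicate 1, and it did not pass (limma adjusted p = 0.0521; adjusted p = 0.00153 without both replicate 1 libraries). The antisense *Slfn5os* covers 8.84% of the *Slfn5* exon bases, and counting by strand is not given in the sources used here.

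**Figure D2:**
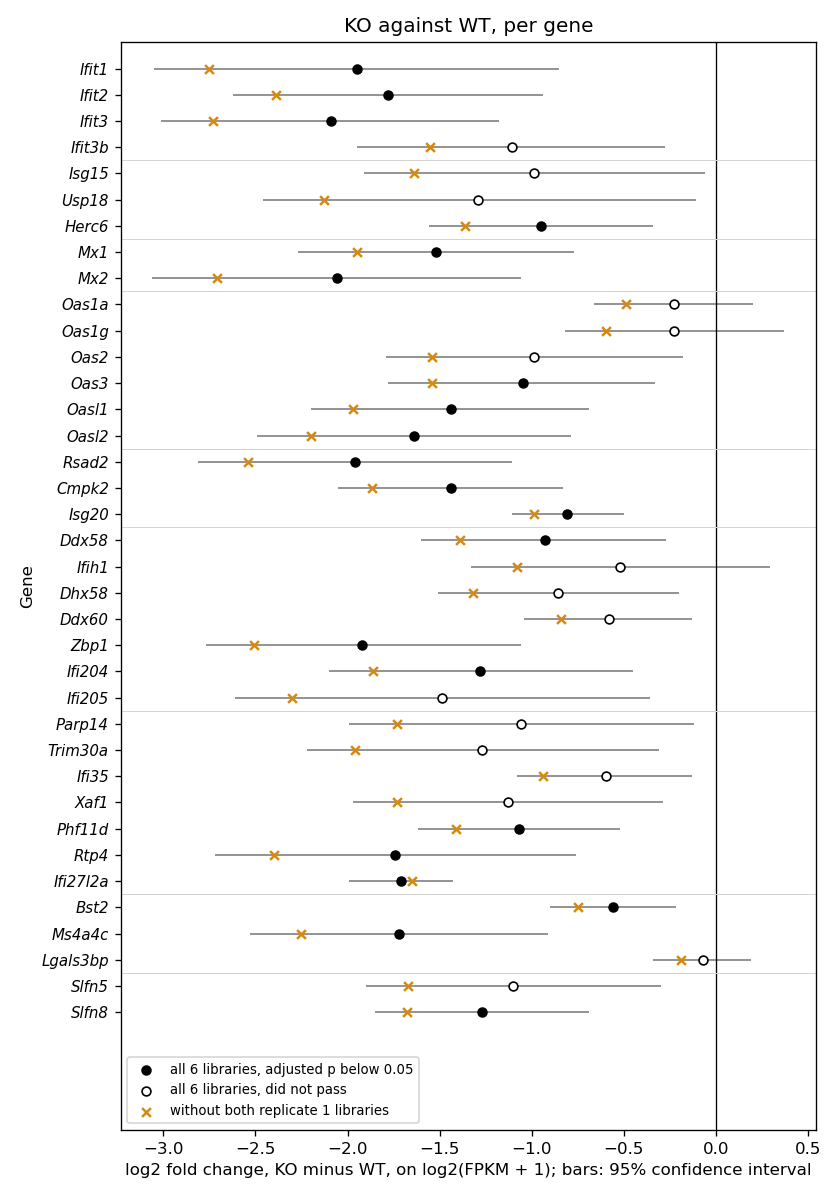
Log2 fold change of each tested gene, KO minus WT on log2(FPKM + 1), with its 95% confidence interval (grey bars). Filled circles passed with all 6 libraries and open circles did not. Crosses give the value without both replicate 1 libraries. All circles lie left of 0, from -2.09 for Ifit3 to -0.07 for Lgals3bp, and 36 of the 37 crosses lie further left than their circles, Ifi27l2a being the exception.

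A match to the exact letters of the ISRE core did not sort the genes by size of difference. The 16 tested genes with a match in their promoter window had a median log2 fold change of -1.08, and 7 of them fell. The 11 tested genes whose window held no match had a median of -1.13, and 8 of them fell. Among the other tested genes with a promoter window 18.6% of 306 with a match fell, against 11.8% of 7677 without one. These are descriptions of the windows searched, and sites outside them were not looked at. Variants with another spacing, present for example in the windows of *Phf11d* and *Xaf1*, were not counted as matches. A window without a match may therefore still hold a related site.

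How far the replicate 1 libraries lay between the genotypes was measured for each gene on log2(FPKM + 1), with the mean of KO replicates 2 and 3 set at 0% and the mean of WT replicates 2 and 3 at 100%. Of the 37 genes 35 had means that differed by at least 0.5 and were placed. KO replicate 1 lay at a median of 48.4% (quartiles 33.9% and 60.8%) and WT replicate 1 at 58.0% (46.8% and 67.8%). Over the 2962 genes of the whole table that could be placed the medians were 23% for KO replicate 1 and 69.7% for WT replicate 1. Both medians lay nearer the middle for the interferon-stimulated genes than over the table, a description with no test. KO replicate 1 was above KO replicates 2 and 3 in 36 of the 37 genes, against 40.9% of all tested genes. WT replicate 1 was below WT replicates 2 and 3 in 35 of the 37, against 35.9% of all tested genes. Both held in 35 of the 37, against 21.9% of all tested genes, the exceptions being *Ifi27l2a* and *Lgals3bp*.

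The 35 genes were not placed alike. *Ifi27l2a* kept the genotypes apart, with KO replicate 1 at 5.87% and WT replicate 1 at 116%. For *Mx1*, *Mx2* and *Ms4a4c* KO replicate 1 stood at 8.43%, 18.9% and 19.2%, and WT replicate 1 at 42.4%, 47.0% and 48.7%. The added 1 compresses differences below 1 FPKM, and in FPKM KO replicate 1 exceeded the mean of KO replicates 2 and 3 in *Mx2* (0.822 against 0.281) and *Ms4a4c* (0.848 against 0.370). *Ifit3b* held both replicate 1 libraries low, at 3.56% in KO and 18.3% in WT. At the other end KO replicate 1 reached 95.4% for *Ifih1* and 133% for *Oas1g*, beyond WT replicate 1 at 38.7% and 46.6%. In 14 of the 37 genes KO replicate 1 exceeded WT replicate 1 in FPKM, against 52.6% of all tested genes. The KO and WT values did not overlap in 23 genes, all lower in KO, against 19.9% of all tested genes lower and 25.7% higher without overlap. These counts rest on the FPKM scaling, which raises KO replicate 1 and lowers WT replicate 1 relative to reads in genes.

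**Figure D3:**
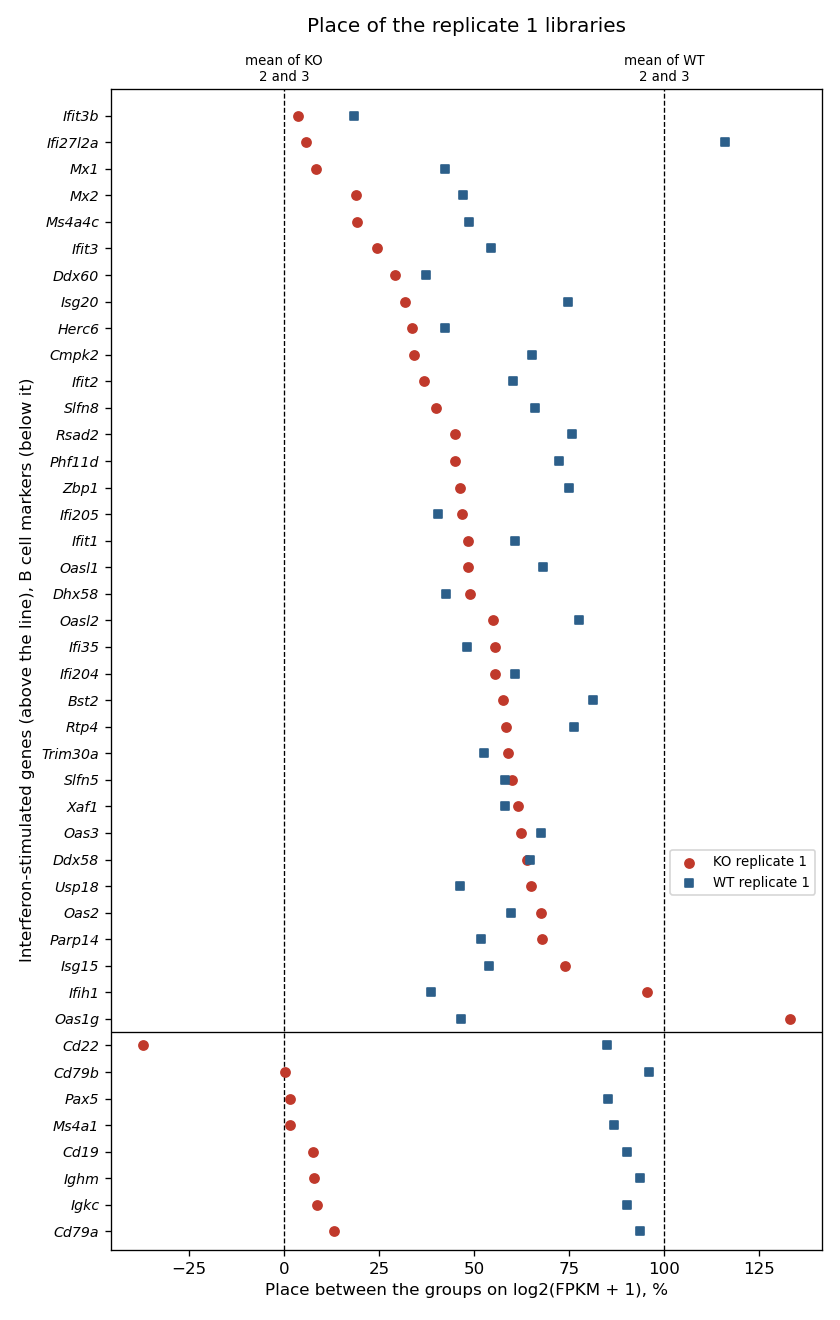
Place of KO replicate 1 (circles) and WT replicate 1 (squares) between the mean of KO replicates 2 and 3 (0%) and the mean of WT replicates 2 and 3 (100%) on log2(FPKM + 1). The 35 placed interferon-stimulated genes stand above the line, in order of KO replicate 1, and 8 B cell markers below it. Most interferon-stimulated genes have both libraries in the middle, while the B cell markers keep KO replicate 1 between -37% and 13.1% and WT replicate 1 between 84.9% and 95.9%.

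Markers of other cell types also differed between the groups. All 8 B cell markers fell in KO, and they summed to between 29.2 and 37.6 FPKM in KO libraries and between 551 and 710 FPKM in WT libraries. Their median place was 4.69% for KO replicate 1 and 90.3% for WT replicate 1. Of 7 markers of plasmacytoid dendritic cells, the cells that make most interferon-alpha, 3 were tested, with *Spib* and *Tcf4* lower and *Cox6a2* higher in KO, the last on 27 reads over the KO libraries and 5 over the WT libraries and not passing without both replicate 1 libraries (adjusted p = 0.068). They summed to 2.5 to 3.61 FPKM in KO libraries and 12.7 to 17.3 FPKM in WT libraries, most of it *Spib*, which B cells also use. The defining marker *Siglech* had 3 reads over the KO libraries and 55 reads over the WT libraries. Of 6 dendritic cell markers 4 fell (26.5 to 37.1 FPKM summed in KO, 97.3 to 157 FPKM in WT), as did the 3 tested of 7 T and NK cell markers (1.77 to 2.57 FPKM summed in KO, 8.32 to 9.77 FPKM in WT). Of the monocyte markers *Chil3* rose, and of 5 neutrophil markers *Mmp8* fell. No marker in these lists was at 0 in every library. The part of other cell types in the interferon-stimulated genes was not tested, and in bulk RNA fewer cells of a type and less RNA per cell cannot be told apart.

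Genes that make and read interferon were set beside their targets. Of 60 such genes with a row, in 6 lists, 41 were tested, 12 fell and 6 rose (12.4% and 15.7% of all tested genes). Without both replicate 1 libraries 20 fell and 5 rose (16.3% and 19.3%). The lower count was 3 when KO replicate 2, KO replicate 3 or WT replicate 3 was left out (7.28%, 7.29% and 7.52% of all tested genes). These 3 of 41 are near those shares. It was 5 without WT replicate 2 (8.46%), and 4 with no level filter (1187 of 28477 genes over the whole table). Of the 20 genes in the interferon list 15 had no read in any library, among them most interferon-alpha genes and both interferon-lambda genes. *Ifnb1*, interferon-beta, had 18, 0 and 0 reads in KO replicates 1 to 3 and 0, 7 and 9 reads in WT replicates 1 to 3. *Ifng*, interferon-gamma, had 52, 12 and 7 reads in KO and 3, 29 and 15 reads in WT. Both genes were thus highest in KO replicate 1, and neither passed (limma adjusted p = 0.902 and 0.845). Without both replicate 1 libraries *Ifnb1* passed as lower in KO (log2 fold change -0.91, limma adjusted p = 0.00816, on 0 KO reads and 7 and 9 WT reads), and *Ifng* did not (-0.69, adjusted p = 0.0837).

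Of 6 receptor genes 3 rose and 0 fell. *Ifnar1*, the type I receptor chain that recruits TYK2, had 28.9, 24.4 and 22.8 FPKM in KO, against 17.6, 20.2 and 20 FPKM in WT, and rose 1.32-fold (limma adjusted p = 0.0421). *Ifngr1* and *Il10rb*, of the interferon-gamma and interferon-lambda receptors, also rose (log2 fold changes 0.27 and 0.41), and *Ifnar2* did not pass (0.32, limma adjusted p = 0.133). In TPM, a scaling to a fixed sum per library, none of the 3 rises passed (limma adjusted p from 0.0812 to 0.399), and *Ifngr1* did not pass without both replicate 1 libraries (adjusted p = 0.0603). In the signalling list *Stat2* had 7.73, 3.97 and 3.37 FPKM in KO, against 10, 15.5 and 14.3 FPKM in WT. It is itself interferon-stimulated, and it fell 2.64-fold without overlap (limma adjusted p = 0.02). The kinase genes *Jak1* and *Tyk2* did not pass (log2 fold changes 0.00 and -0.20). *Irf9* and *Jak2* had KO replicate 1 at 115% and 126% of the way to WT replicates 2 and 3, and did not pass either. Without both replicate 1 libraries these 2 genes passed as lower in KO (log2 fold changes -0.64 and -1.23, limma adjusted p = 0.00368 and 8.61e-04).

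Of 7 tested interferon regulatory factor genes 5 fell and 0 rose. *Irf7*, the factor that amplifies interferon production, had 11.5, 4.60 and 4.06 FPKM in KO, against 13.7, 17.5 and 21.7 FPKM in WT, and fell 2.63-fold (limma adjusted p = 0.0333). *Irf1* fell 2.26-fold and *Irf5* 1.69-fold (limma adjusted p = 0.0213 and 0.00129), and *Irf2* and *Irf4* also fell, *Irf2* not passing in TPM (adjusted p = 0.0846). *Irf3*, the factor that first turns on *Ifnb1*, missed the threshold (limma adjusted p = 0.132, log2 fold change -0.20). Among the sensing genes *Tlr4*, *Tlr7* and *Ticam2* rose, while *Tlr9* and the cytosolic DNA sensing genes *Mb21d1* (cGAS) and *Tmem173* (STING) fell. *Tlr4* had 14.1, 16.8 and 15.5 FPKM in KO, against 5.70, 5.18 and 6.36 FPKM in WT. *Tmem173* had 2.28, 2.5 and 2.72 FPKM in KO, against 4.71, 5.57 and 5.69 FPKM in WT. In these 2 genes the replicate 1 libraries stayed with their genotypes. Of the feedback inhibitors *Ptpn6* and *Irf2bp2* fell, *Irf2bp2* not passing in TPM (limma adjusted p = 0.123). *Socs1* had 9.89, 3.99 and 3.40 FPKM in KO, against 9.37, 16.3 and 20.9 FPKM in WT, and missed the threshold (limma adjusted p = 0.0552). It passed without both replicate 1 libraries (log2 fold change -2.06, adjusted p = 0.00166).

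**Figure D4:**
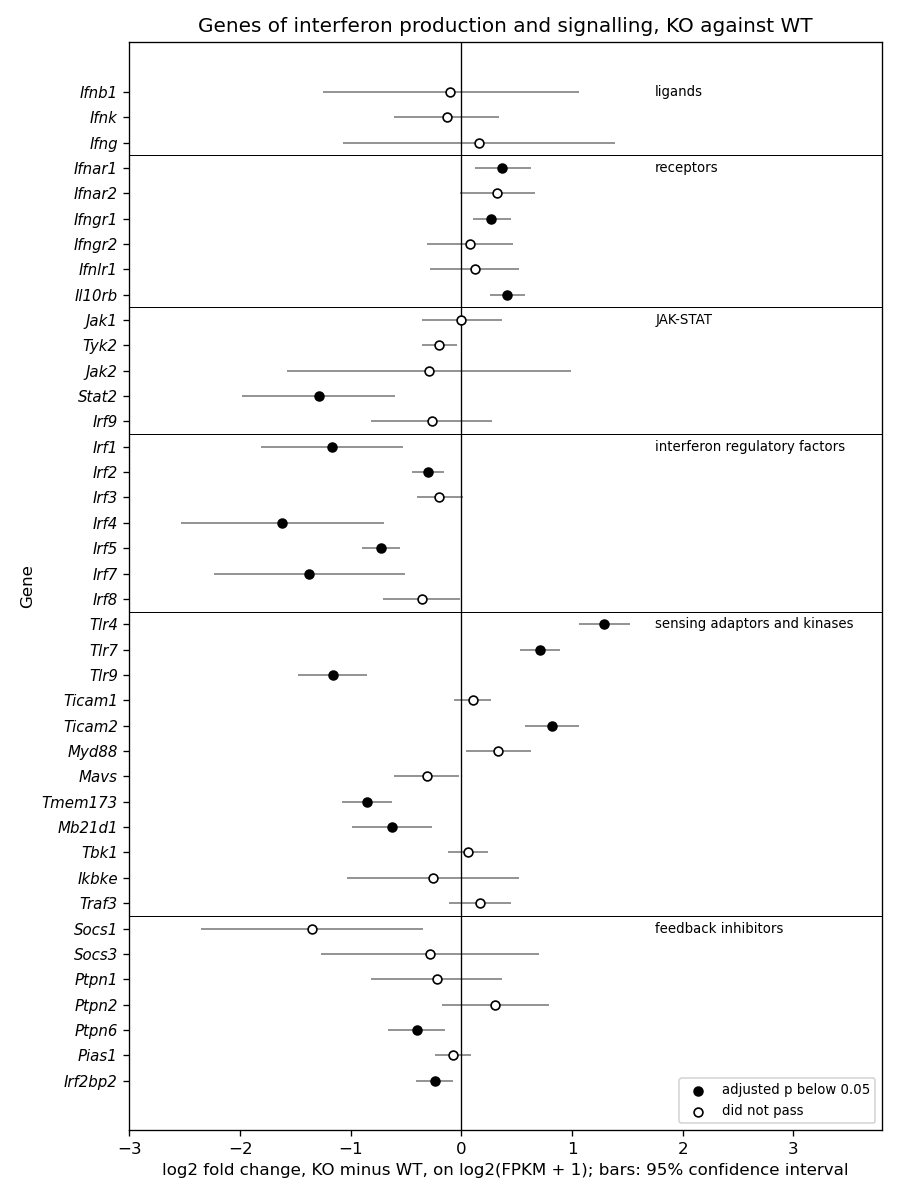
Log2 fold change, KO minus WT on log2(FPKM + 1), of 40 tested genes of interferon production and signalling, with 95% confidence intervals. Filled circles passed (limma, adjusted p below 0.05). Receptor genes lie right of 0, from 0.08 to 0.41. Stat2 and all 7 tested interferon regulatory factor genes lie left of 0, and 5 of those 7 are filled.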

How the data were processed

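Total RNA libraries (Illumina TruSeq, per the labels' protocols), 3 KO and 3 WT, were compared, with groups and replicate numbers from the sample titles. The authors deposited 1 table of FPKM, with gene coordinates and gene lengths in bases. The submitters' processing notes name GRCm38 and mm10 as builds, and the aligner, counting tool and strand setting were not given in the sources used. In each library FPKM multiplied by length came in equal steps (100% of nonzero values lay within 0.05 of a step), and steps were taken as reads, between 11026529 and 15724897 in a library. Intervals from reads cover counting error only.

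limma 3.58.1 in R 4.3.3 was fitted to log2(FPKM + 1) with genotype alone and an intensity trend, for the 11689 genes averaging 0.5 FPKM or more. This scale understates changes of low genes, and folds are ratios of mean FPKM. Benjamini-Hochberg adjusted p below 0.05 was called. The fit was run on simulated reads whose replicates were drawn alike, with no library standing apart as in these data. That run is therefore no check of the calls given here. Transcripts and exons were from GENCODE M21, and promoters from RefSeq.

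The genes, lists, roles and tests were chosen with earlier results of these data known. All 38 genes are named, and other genes come from fixed lists of interferon production, signalling and cell type markers. Alternatives were other pseudocounts, filters and scalings, a replicate block, leaving out libraries, and limma-voom on the recovered reads. Some genes of these lists are counted in the totals and not reported by name here.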

Additional observations from a re-analysis of the deposited data

How the results depend on the processing

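All 37 tested genes stayed below 0 under every alternative that tested them (33 were tested at a mean of at least 2 FPKM). The count of lower genes was 21 with a pseudocount of 0.1 or quantile normalization, where 1427 and 1377 of all 11689 tested genes were lower. It was 31 in TPM (1161 of 11689 over all genes). With limma-voom on recovered reads, chosen after seeing the data, it was 29 (13.4% of all tested genes). It was 22 where a mean of 2 FPKM was required (876 of 7702 over all genes) and 14 with no filter (1187 of 28477). It ranged from 7 to 32 when 1 library was left out, and was 36 without both replicate 1 libraries, where the median log2 fold change was -1.68 and 20 pathway genes were lower. With the replicate block 1 gene, *Ifi27l2a*, was called, along with 3 higher and 4 lower pathway genes, and over all genes 479 higher and 604 lower. Same-numbered libraries did not deviate together (correlations -0.505, -0.191 and -0.158). Deviations from means of 3 libraries cannot show whether same-numbered libraries were handled together. Why calls were lost under the block was not tested. Over all genes 1833 were higher and 1445 lower. TPM gave 542 higher and 1161 lower, with 3 pathway genes higher. A mean of at least 2 FPKM gave 876 lower, and no filter gave 4 pathway genes lower. With 1 library left out the genes called higher ranged from 912 to 1681, those called lower from 851 to 1337, and pathway genes called lower from 3 to 14. The median place of KO replicate 1 was 32.9% on linear FPKM and 37.7% in TPM, and that of WT replicate 1 was 40.8% on linear FPKM. The causes of these shifts were not tested. The 2 planned count models, edgeR and DESeq2, were not run, as the deposited unit is FPKM. Depth limits *Ifit3b* and *Ifi44*, with 1 and 7 reads over the KO libraries.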
